A study of Homo sapiens with 4 samples.

Results

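The miR-30 family is a set of microRNAs, short RNAs that guide Argonaute proteins to messenger RNAs. It was followed here in HCT116, a human colorectal carcinoma cell line, as all rows of the deposited miRNA table named miR-30a, miR-30b, miR-30c, miR-30d or miR-30e. These were 11 of 1345 rows, made up of 5 strands from the 5p arm and 6 strands from the 3p arm of 6 hairpins. All 11 strands reached the level needed for the test, a mean of at least 10 normalised counts over the libraries, as did 709 rows in all. The rows were chosen by name and not by level or change.

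The cells carried a hairpin RNA (shRNA), inducible by doxycycline, against SAE2, the catalytic subunit of the enzyme that activates the small modifier protein SUMO. There were 2 lines with independent shRNAs, and 4 small-RNA libraries of mature miRNAs were sequenced. The groups are 2 libraries labelled minus (replicate 1, line sh1; replicate 2, line sh2) and 2 labelled plus, read here as without and with induction. Every library carries the same protocol text, 3 days of doxycycline, so only the words minus and plus in the labels support this reading. Plus replicate 2 is labelled sh2, while plus replicate 1 carries no shRNA number in its label and was placed in the sh1 line by elimination where lines are compared. Doxycycline-treated cells without an SAE2 shRNA were not analysed here, so doxycycline and knockdown cannot be told apart, and SAE2 itself is not measured in these libraries. The libraries of a group come from different lines with 1 library per line and condition, so the spread within a group is that between lines.

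Each miRNA hairpin is cut by the enzymes Drosha and Dicer into a duplex, of which 1 strand, here mostly the 5p strand, is kept by Argonaute and the other is mostly lost. The 5p strands of miR-30a to miR-30e share their seed, the stretch that pairs with target RNAs, and differ mainly further along. The family is known for repressing SNAI1, a driver of the change from an epithelial to a mesenchymal state. Messenger RNAs were not measured in these libraries.

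The table of mature sequences from RefSeq (GRCh38.p14) matched 7 of the 11 strands, 3 of the 5p arm and 4 of the 3p arm. It held no entry for the strands of miR-30b or miR-30d. The matched strands are shown because some are almost the same in sequence, which bears on how their reads were told apart. Capitals mark the seed, bases 2 to 8 from the 5′ end.
miR-30a-5p: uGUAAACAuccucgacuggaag
miR-30e-5p: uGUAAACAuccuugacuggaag
miR-30c-5p: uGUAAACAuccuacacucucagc
miR-30a-3p: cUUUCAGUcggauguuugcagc
miR-30e-3p: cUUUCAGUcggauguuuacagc
miR-30c-1-3p: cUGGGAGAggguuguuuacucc
miR-30c-2-3p: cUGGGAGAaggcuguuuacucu

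The 3 matched 5p strands carry the seed GUAAACA, and no mature sequence outside the family among the 2370 names in that table has it. The 3p strands of miR-30a and miR-30e share the seed UUUCAGU, found in no other name of that table. The seeds of miR-30b-3p and miR-30d-3p could not be compared, as they have no entry there. The 3p strands of the miR-30c copies share UGGGAGA with 1 miRNA outside the family, miR-6788-5p, which was not analysed here. miR-30a-5p and miR-30e-5p differ at 1 of 22 positions (C13U, counted from the 5′ end, miR-30a first), and miR-30a-3p and miR-30e-3p at 1 of 22 positions (G18A). How the read counter treated mismatches is not given in the sources used here, so reads of these neighbours could have been exchanged. Strands of miR-30b and miR-30d had no sequence to compare. Exchange of their reads with other members, such as miR-30d-5p with miR-30a-5p, was therefore not examined. miR-30c-5p is made from both copies with the same sequence and cannot be divided between them. Their 3p strands differ at 3 positions (G9A, U12C and C22U, miR-30c-1 first) and report on each copy separately.

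In GRCh38.p14, MIR30E lies at chr1:40754355-40754446 and MIR30C1 at chr1:40757284-40757372, both on the plus strand, 2837 bases apart. In the GENCODE 29 annotation both are in introns of NFYC, a protein-coding gene for a subunit of the transcription factor NF-Y, and on its strand. MIR30C2 at chr6:71376960-71377031 and MIR30A at chr6:71403551-71403621 lie 26519 bases apart on the minus strand, in introns of the long non-coding RNA genes LINC00472 and AL136164.2. The hairpins MIR30E and MIR30A, with the mature strands in capitals, show how the arms face each other.
MIR30E: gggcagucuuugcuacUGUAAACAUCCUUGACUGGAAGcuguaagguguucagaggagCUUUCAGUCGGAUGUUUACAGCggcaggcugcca
MIR30A: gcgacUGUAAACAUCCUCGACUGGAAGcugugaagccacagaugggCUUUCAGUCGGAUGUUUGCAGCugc

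Normalised read counts summed to between 9700472 and 10519207 per library. The 9 epithelial marker miRNAs fixed for the check of cell identity were all present, with sums of 599442 and 586460 normalised counts in minus and 657867 and 662619 in plus libraries. Of these, 5 rose and 4 did not pass, with miR-192-5p, miR-194-5p and miR-215 at log2 changes of 0.78, 0.72 and 0.71. For this and the marker lists that follow, the share over all 709 miRNAs tested was 13.4% risen and 15.1% fallen (limma, adjusted p under 0.05). The 6 blood markers summed to 991 to 1207, with miR-144-3p under 3 in every library, and of the 4 that were tested none passed by limma (0 at an unadjusted p under 0.05). The 5 markers of stroma and endothelium summed to 16425 and 16495 in the minus and to 14095 and 16912 in the plus libraries, with 2 rises and 1 fall. Of the muscle, liver and neuron markers, miR-9-5p rose, and the list summed to 14695 and 13919 in minus and 18663 and 20238 in plus libraries. Nearly all of this was miR-9-5p, at 14627 and 13849 in minus and 18574 and 20142 in plus libraries. The next highest of the list, miR-122-5p, reached at most 58.2. Marker levels and their part in the changes of the miR-30 strands were not tested against each other.

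The 5p strands of the family were abundant and kept 1 order in all 4 libraries, miR-30e above miR-30d, miR-30c, miR-30a and miR-30b. Mature strands are nearly equal in length, so normalised counts can be set side by side without a length correction, although ligation favours some sequences over others. By mean level miR-30e-5p ranked 33rd in the table, miR-30d-5p 42nd, miR-30c-5p 57th, miR-30a-5p 72nd and miR-30b-5p 86th. In no case did the ranges of neighbours in this order overlap. Summed, the 5p strands took 1.56% and 1.497% of all normalised counts in the minus pair, and 1.64% and 1.63% in the plus pair. The 3p strands took 0.0540% and 0.0553% in minus and 0.0631% and 0.0627% in plus libraries. Both shares were higher in the plus libraries without overlap, which for 2 against 2 libraries is a description only.

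**Figure D1:**
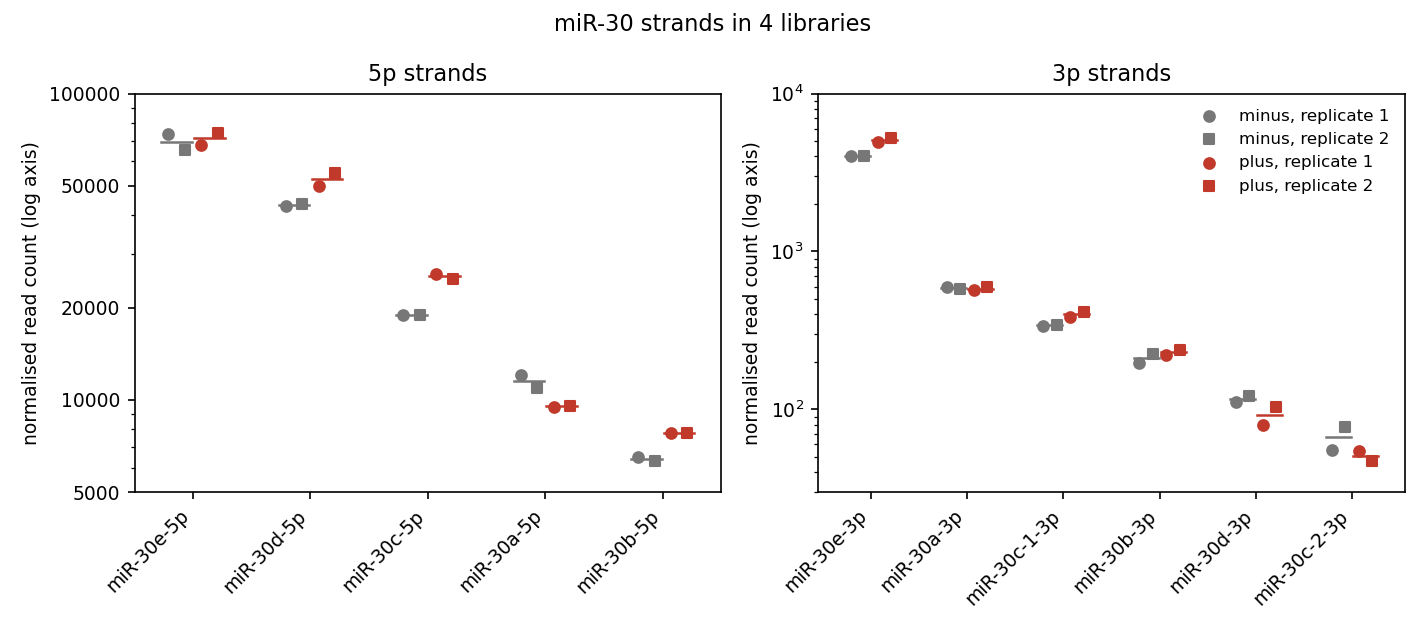
Normalised read count, on a log axis, of the 5p strands (left) and 3p strands (right) of the miR-30 family in the 4 libraries, with short lines at condition means. Red (plus) is above grey (minus) for miR-30c-5p, at 25293 against 18942, and under grey for miR-30a-5p, at 9518 against 11478.

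With induction, miR-30b-5p, miR-30c-5p and miR-30d-5p rose, miR-30a-5p fell and miR-30e-5p did not pass. Of the 6 minor 3p strands only miR-30e-3p passed, as a rise. In all, 4 of 11 strands rose, 1 fell and 6 did not pass (limma, Benjamini-Hochberg adjusted over 709 miRNAs, threshold 0.05). Over all tested miRNAs 13.4% rose and 15.1% fell, 28.5% together. The median log2 change was 0.13 over the 11 strands and −0.03 over all miRNAs tested. Ratios of the plus to the minus means ran from 0.763 to 1.34. Values of the 2 conditions did not overlap for 8 of the 11 strands, 5 higher and 3 lower in plus. Of all miRNAs tested, 29.1% were higher and 33.9% lower without overlap, 62.9% together.

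miR-30c-5p, made from the hairpins on chromosomes 1 and 6, changed most among the strands that passed. It stood at 18905 and 18979 normalised counts in minus replicates 1 and 2 and at 25710 and 24876 in plus replicates 1 and 2. The conditions were far apart for this strand compared with the gap between libraries of a condition. It rose 1.34-fold, from 18942 ± 52.3 to 25293 ± 590 (SD, n = 2 each). On the log2 scale this was 0.42 ± 0.082 (standard error, 95% interval 0.25 to 0.58, limma adjusted p = 0.000100).

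miR-30d-5p and miR-30b-5p come from neighbouring hairpins. miR-30d-5p stood at 43028 and 43532 normalised counts in the minus and at 49929 and 55026 in the plus libraries. Its plus libraries lay above both minus libraries but differed from each other by more than the minus libraries did. It rose 1.21-fold, from 43280 ± 356 to 52477 ± 3604 (SD, n = 2 each), a log2 change of 0.28 ± 0.081 (standard error, limma adjusted p = 0.00858). miR-30b-5p stood at 6499 and 6294 normalised counts in the minus and at 7766 and 7815 in the plus libraries, again without overlap. It rose 1.22-fold, from 6396 ± 145 to 7790 ± 34.4 (SD, n = 2 each), a log2 change of 0.28 ± 0.087 (standard error, limma adjusted p = 0.0111).

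miR-30a-5p was the strand of the family that fell. It stood at 12012 and 10944 normalised counts in minus replicates 1 and 2 and at 9458 and 9577 in plus replicates 1 and 2. Both plus libraries lay below both minus libraries, and the minus libraries were the more spread. The change was 0.829-fold, from 11478 ± 756 to 9518 ± 83.8 (SD, n = 2 each), a log2 change of −0.27 ± 0.086 (standard error, limma adjusted p = 0.0149).

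miR-30e-5p, the most abundant strand, stood at 73547 and 65433 normalised counts in the minus and at 68101 and 74527 in the plus libraries. The conditions overlapped, and each line went its own way. Its log2 change was 0.04 with a 95% interval of −0.13 to 0.21 (limma adjusted p = 0.775). Its partner strand miR-30e-3p, the most abundant of the 3p strands, stood at 4015 and 4023 in the minus and at 4896 and 5195 in the plus libraries, without overlap. It rose 1.26-fold, from 4019 ± 6.34 to 5046 ± 212 (SD, n = 2 each), a log2 change of 0.33 ± 0.091 (standard error, limma adjusted p = 0.00532).

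These calls rest on a spread pooled over miRNAs, with 43.0 prior degrees of freedom against 2 from a strand's own libraries. Their p-values therefore say little about a strand's own difference between lines. Leaving out a library leaves 1 in its condition, which is then assumed to vary like the other condition, so these fits are weak checks. Without either plus library none of the 11 strands passed by limma, although 5 without plus replicate 1 and 6 without plus replicate 2 had an unadjusted p under 0.05. Without minus replicate 1 or minus replicate 2 only miR-30c-5p passed. Over these fits with 1 library left out, its adjusted p ranged from 0.0148 to 0.0755 and its log2 change from 0.39 to 0.44. Scaling mattered for the other calls. miR-30a-5p missed the threshold under median-ratio scaling (log2 change −0.21, limma adjusted p = 0.0916), and miR-30b-5p with equal totals (0.23, adjusted p = 0.0676). miR-30d-5p and miR-30e-3p missed it under quantile normalization, with log2 changes of 0.010 and 0.24 (limma adjusted p = 0.952 and 0.188). Without a mean-variance trend, or without the level filter, miR-30c-5p missed it as well (limma adjusted p = 0.0993 and 0.0706), and no strand of the family passed. Over the 9 alternatives with all libraries, limma adjusted p-values ranged from 1.39e-06 to 0.0993 for miR-30c-5p, 0.00231 to 0.18 for miR-30b-5p, 0.00197 to 0.952 for miR-30d-5p, 0.00468 to 0.22 for miR-30a-5p and 0.000716 to 0.188 for miR-30e-3p.

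**Figure D2:**
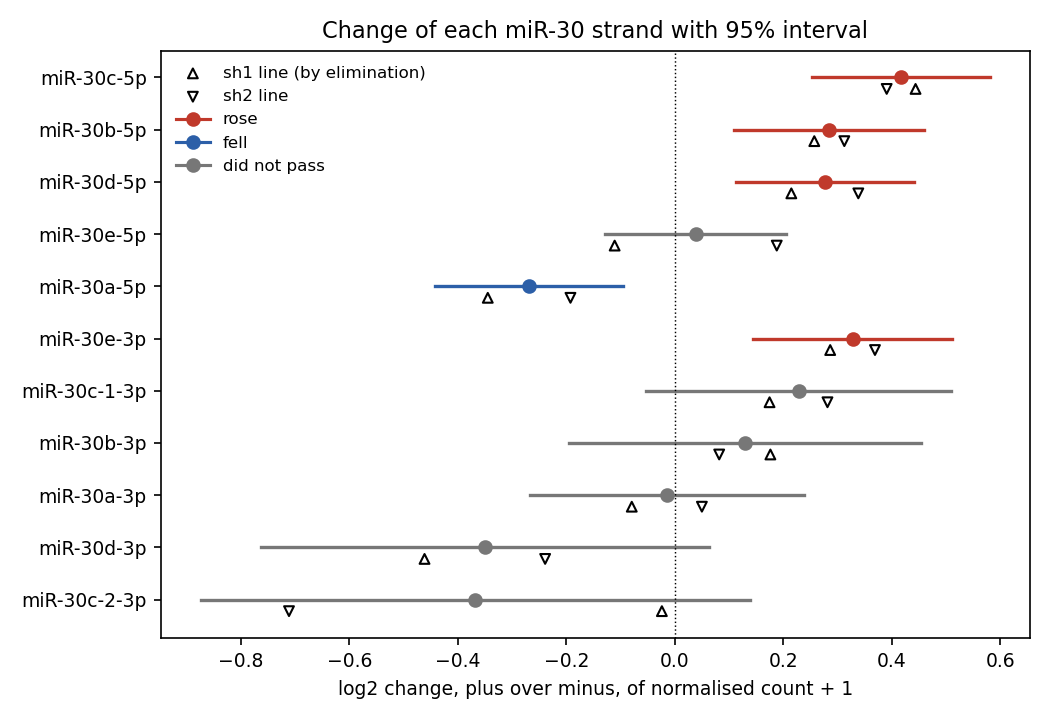
Log2 change, plus over minus, of normalised count + 1 for each miR-30 strand, with points at the estimate from all 4 libraries, bars for its 95% interval, and triangles for the change within each line. The rises (red) run from 0.28 to 0.42, the fall (blue) is miR-30a-5p at −0.27, and the triangles of miR-30e-5p lie on either side of 0.

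The other 5 strands of the 3p arm were less abundant and did not pass. miR-30a-3p stood at 600 and 575 normalised counts in the minus and at 568 and 596 in the plus libraries, which overlapped (log2 change −0.015, limma adjusted p = 0.941). The sign of this change turned under median-ratio scaling and quantile normalization. miR-30b-3p stood at 196 and 225 in the minus and at 221 and 238 in the plus libraries, with overlap (log2 change 0.13, limma adjusted p = 0.58). The remaining strands did not overlap between conditions, but their log2 changes had standard errors of 0.14 to 0.25.

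miR-30c-1-3p and miR-30c-2-3p tell the copies of miR-30c apart. miR-30c-1-3p, from chromosome 1, stood at 340 and 342 normalised counts in the minus and at 383 and 416 in the plus libraries (log2 change 0.23, 95% interval −0.053 to 0.51, limma adjusted p = 0.236). miR-30c-2-3p, from chromosome 6, stood at 55.4 and 77.6 in the minus and at 54.5 and 47.0 in the plus libraries (log2 change −0.37, 95% interval −0.87 to 0.14, limma adjusted p = 0.291). Its change rested largely on minus replicate 2, the highest of the 4, and was −0.13 without it. The ratio of miR-30c-1-3p to miR-30c-2-3p was 6.13 and 4.40 in minus and 7.03 and 8.84 in plus libraries. It was higher in both plus libraries than in both minus libraries, a difference with no test here. miR-30d-3p stood at 111 and 122 normalised counts in the minus and at 80.3 and 103 in the plus libraries (log2 change −0.35, 95% interval −0.76 to 0.062, limma adjusted p = 0.214).

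For these low strands the depth was estimated from the worth of 1 read, between 0.945 and 1.03 normalised counts per library. Reads were summed per condition. The ratios and intervals below, plus over minus, were rescaled for the worth of 1 read in each condition. They are therefore not the plain quotients of the read numbers. miR-30c-2-3p had about 137 reads in minus and 99 in plus libraries, a ratio of 0.76 (95% exact Clopper-Pearson interval 0.58 to 0.991). miR-30d-3p gave about 239 against 179 reads (ratio 0.787, interval 0.645 to 0.959). miR-30c-1-3p gave about 699 against 780 reads (ratio 1.17, interval 1.06 to 1.301), and miR-30b-3p about 432 against 448 (ratio 1.09, interval 0.953 to 1.25). These intervals cover counting error only and leave out the spread between lines, and reads are not independent molecules.

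Grouped by position, the strands that belong to a single hairpin gave 1 rise among 3 for miR-30e and miR-30c-1 on chromosome 1, miR-30e-3p, with a median log2 change of 0.23. The 3 such strands of miR-30a and miR-30c-2 on chromosome 6 gave 1 fall, miR-30a-5p, and a median of −0.27. The 4 strands of miR-30b and miR-30d gave 2 rises and a median of 0.20. Grouped by arm, 3 of 5 strands of the 5p arm rose and 1 fell, with a median of 0.28, and 1 of 6 strands of the 3p arm rose, with a median of 0.057. Over all miRNAs tested 13.4% rose and 15.1% fell, 28.5% together, and the median was −0.03. No difference between these groups was tested.

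The make-up of the summed 5p strands, which share a seed, is given as shares that sum to 100% in each library and so are not independent. miR-30e-5p made up 47.8% and 45.1% of the summed 5p strands in minus and 42.3% and 43.4% in plus libraries. miR-30c-5p made up 12.3% and 13.1% in minus and 16.0% and 14.5% in plus libraries. miR-30d-5p went from 27.9% and 29.98% to 31.0% and 32.0%, miR-30a-5p from 7.80% and 7.54% to 5.88% and 5.57%, and miR-30b-5p from 4.22% and 4.34% to 4.82% and 4.55%. The shares of miR-30e-5p and miR-30a-5p were lower in both plus libraries and those of the other strands higher, with no test. Counts of the summed 5p strands were 153991 and 145181 in minus and 160964 and 171820 in plus libraries.

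**Figure D3:**
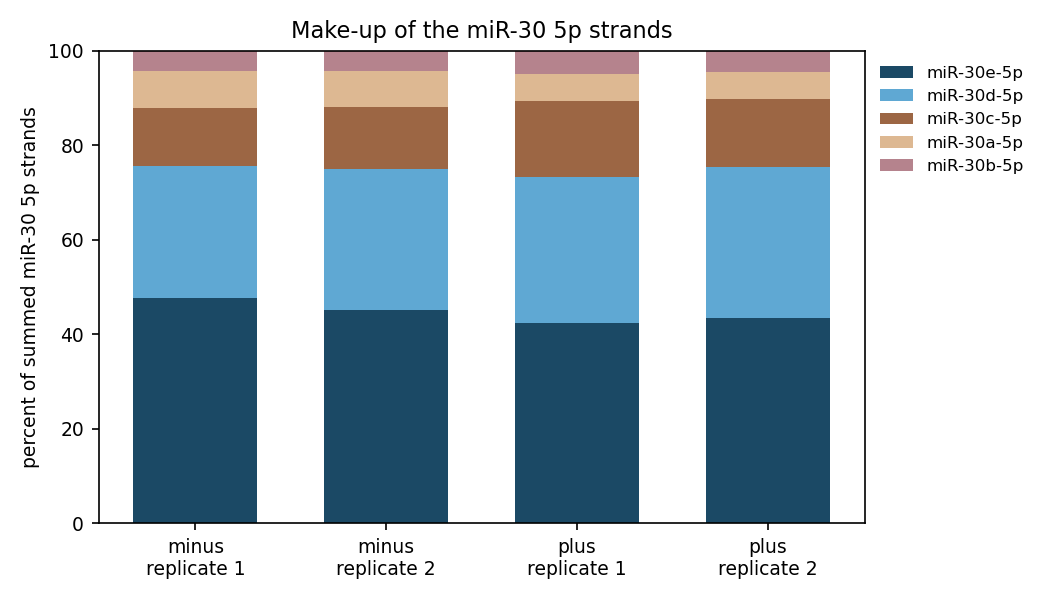
Share of each 5p strand in the summed miR-30 5p strands, in percent, in each of the 4 libraries, as stacked bars. miR-30c-5p takes 12.3% and 13.1% in minus and 16.0% and 14.5% in plus libraries, and miR-30a-5p takes 7.80% and 7.54% against 5.88% and 5.57%.

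Ratios between 5p strands within a library are free of any factor that scales the whole library, though quantile normalization, which works by rank, does move them. Of the 10 pairs, built from the same 5 strands, 9 did not overlap between conditions, against 61.1% of all pairs of tested strands. The ratio of miR-30a-5p to miR-30c-5p moved most, from 0.635 and 0.577 in the minus to 0.368 and 0.385 in the plus libraries, a log2 change of −0.69. The ratio of miR-30a-5p to miR-30e-5p, which differ by a single base, went from 0.163 and 0.167 to 0.139 and 0.129, a log2 change of −0.31. miR-30b-5p to miR-30d-5p, from neighbouring hairpins, was the pair that overlapped, at 0.151 and 0.145 in minus and 0.156 and 0.142 in plus libraries. For each of the 9 pairs the exact two-sided permutation p was 0.33 (0.37 adjusted over the 10 pairs), the smallest that 2 against 2 libraries can give.

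The balance of the 2 strands of a hairpin was tested as the log2 ratio of 5p to 3p within a library, over 204 strand pairs of which both strands had a mean of at least 10. This ratio rose for miR-30d and miR-30c-2 and fell for miR-30e, 3 of the 6 miR-30 pairs, while 9.31% of all pairs rose and 10.8% fell, 20.1% together (limma, Benjamini-Hochberg adjusted). miR-30d had 388 and 357 reads of the 5p strand per read of the 3p strand in minus and 622 and 533 in plus libraries, a log2 change of 0.63 ± 0.14 (standard error, limma adjusted p = 0.0137). miR-30e had 18.3 and 16.3 in minus and 13.9 and 14.3 in plus libraries, a log2 change of −0.29 ± 0.090 (standard error, limma adjusted p = 0.0428). Both calls were lost with the line as a block (limma adjusted p = 0.0657 and 0.157). The trend of this fit followed the mean level of both strands, which can understate the spread where the 3p strand is low. For miR-30d the standard error of the ratio, 0.14, was below that of miR-30d-3p alone, 0.20.

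For miR-30c-2 the ratio was 341 and 244 in minus and 472 and 529 in plus libraries, a log2 change of 0.78 ± 0.18 (standard error, limma adjusted p = 0.0143). The standard error of this ratio was likewise below that of miR-30c-2-3p alone, 0.25, so its spread may be understated. Its 5p strand is shared with miR-30c-1, so this ratio also moves with the output of the other copy. For miR-30c-1 it was 55.7 and 55.5 in minus and 67.0 and 59.8 in plus libraries (log2 change 0.19, limma adjusted p = 0.383). miR-30a had 20.03 and 19.0 in minus and 16.7 and 16.1 in plus libraries, without overlap and not past the threshold (log2 change −0.25, 95% interval −0.53 to 0.020, limma adjusted p = 0.206). miR-30b had 33.2 and 28.0 against 35.1 and 32.8, with overlap (log2 change 0.16, limma adjusted p = 0.63).

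With the line as a block none of the 6 strand ratios passed by limma, with an adjusted p of 0.118 for miR-30c-2, and 4 of them had an unadjusted p under 0.05. Over the alternatives with all libraries, limma adjusted p-values ranged from 0.00115 to 0.118 for miR-30d, 0.00588 to 0.133 for miR-30c-2 and 0.0208 to 0.295 for miR-30e. With a library left out, the lone library of that condition is again assumed to vary like the other condition. None of the 6 passed by limma without minus replicate 2, without plus replicate 1 or without plus replicate 2, each fit with 3 at an unadjusted p under 0.05. Without minus replicate 1 the ratio of miR-30c-2 alone passed (limma adjusted p = 0.00267 and log2 change 1.02, against 0.55 without minus replicate 2). Over the fits with a library omitted, miR-30d stayed between 0.52 and 0.74 and miR-30e between −0.38 and −0.20 on the log2 scale.

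**Figure D4:**
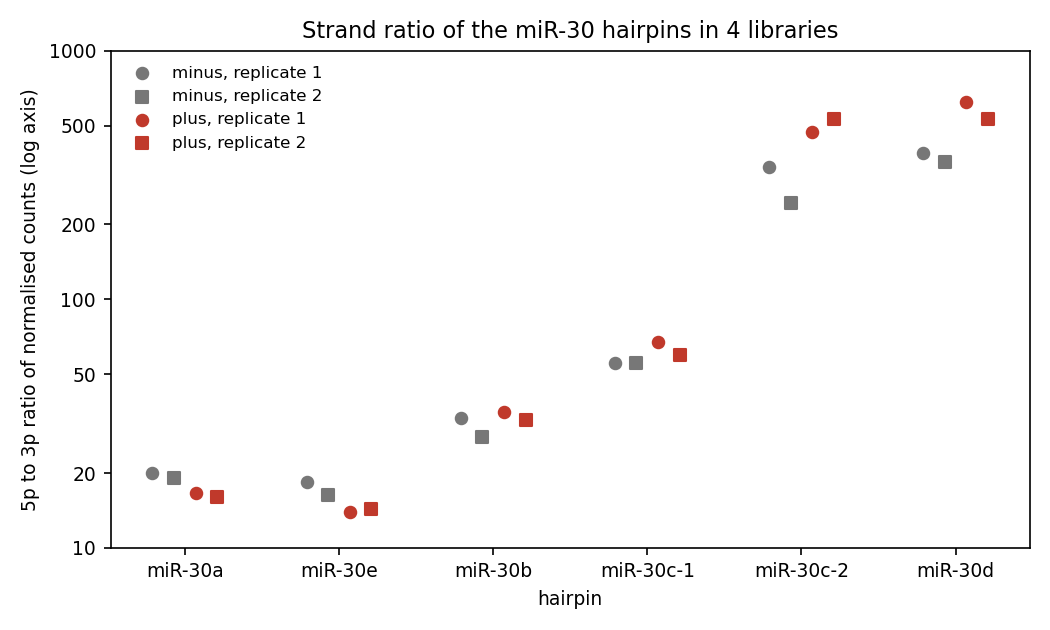
Ratio of the 5p to the 3p strand in normalised counts, on a log axis, for the 6 miR-30 hairpins in the 4 libraries. Red (plus) is above grey (minus) for miR-30d, at 622 and 533 against 388 and 357, and under grey for miR-30e, at 13.9 and 14.3 against 18.3 and 16.3.

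Taken line by line, with no test possible from single libraries, 9 of the 11 strands moved in the same direction in both lines. miR-30c-5p had log2 changes of 0.44 in sh1 and 0.39 in sh2, miR-30b-5p of 0.26 and 0.31, and miR-30d-5p of 0.21 and 0.34. miR-30a-5p was at −0.34 in sh1 and −0.19 in sh2, and miR-30e-3p at 0.29 and 0.37. Each strand that passed had the sign of its change in both lines. This follows from conditions that did not overlap and is no separate result. miR-30c-2-3p was at −0.024 in sh1 and −0.71 in sh2, the widest gap of the family. Of all miRNAs tested, 26.8% moved in opposite directions in the 2 lines.

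Other miRNAs of the epithelial state, main strands of the miR-200 family with miR-205 and miR-203, were set beside the miR-30 strands. Of these 7, all tested, 3 rose and 4 did not pass, with a median log2 change of 0.21, while 13.4% of all miRNAs tested rose and their median was −0.03. miR-200a-3p, miR-200b-3p, miR-200c-3p, miR-141-3p and miR-429 are also among the epithelial markers above, so the lists are not independent. miR-200b-3p, which represses the mesenchymal regulators ZEB1 and ZEB2, stood at 68528 and 65669 normalised counts in the minus and at 81011 and 81720 in the plus libraries (log2 change 0.28, limma adjusted p = 0.00729). miR-200a-3p was at a log2 change of 0.26 and miR-203 at 0.26 (limma adjusted p = 0.0142 and 0.0172). miR-200c-3p, miR-141-3p, miR-429 and miR-205-5p missed the threshold, at log2 changes of 0.13, 0.17, 0.21 and −0.95. The change of miR-205-5p had a standard error of 0.51 and rested on few reads. It stood at 14.1 and 13.3 normalised counts in the minus and at 4.17 and 10.2 in the plus libraries.

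Among 184 miRNAs outside the family with a mean of at least 1000, the pattern of the summed miR-30 5p strands over the 4 libraries was nearest to that of miR-21-5p, miR-7-1-3p, miR-10a-5p, miR-200a-5p and miR-151a-3p. Their distances, on centred log2 values, were 0.048, 0.049, 0.063, 0.067 and 0.077. With 4 libraries this is a description only.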

How the data were processed

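The authors deposited 1 table of mature miRNAs with a signal per library, read here from its values as scaled read counts. The scaling did not make the library totals equal, and how it was done is not given in the sources used here. Reads were trimmed with cutadapt per the labels' titles. The submitters' processing notes list TopHat2 2.0.8b, edgeR and the builds hg19 and GRCh37 but give none of them a role. For the counter and the miRNA annotation nothing is given in the sources used here. Columns write sh4 where titles write sh2 and were matched by library number and index.

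The worth of 1 read was estimated from low values. Of the values under 60, 86.9% to 100% per library lay within 0.1 of whole reads, lowest in minus replicate 2, whose read numbers are the least sure. The deposited values are not raw counts, and no count model was run. Library pairs of a group differed beyond counting noise (chi-square per degree of freedom 19.9 and 67.0).

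limma 3.58.1 in R 4.3.3 was fitted to log2(value + 1) with a mean-variance trend, two-sided, over 709 miRNAs with a mean of at least 10. Fold changes on this scale understate changes of low miRNAs. Strand ratios were fitted likewise over 204 pairs, where a strand named for 1 genomic copy was paired with the strand that carries no copy number. Both fits were tested on simulated data, with Poisson counts, independent noise in each library and no difference between lines. This does not check the calls against the spread between lines. Libraries of a number share a line, for replicate 1 by elimination. The correlation of their deviations from the group means was 0.056 over 709 miRNAs. Every miR-30 row is named. The members and lists were chosen with earlier results of these data known. Other scalings, pseudocounts, filters, no trend, the line as a block and leaving out each library were tried.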

Additional observations from a re-analysis of the deposited data

Results flagged for a closer look

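Of the 11 strands, 2 moved in opposite directions in the 2 lines. miR-30e-5p had a log2 change of −0.11 in the sh1 line and 0.19 in the sh2 line. miR-30a-3p had −0.079 in sh1 and 0.050 in sh2. The differences between the lines were not tested, since each line has 1 library per condition, and 26.8% of all miRNAs tested did the same.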

How the results depend on the processing

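The table-wide count of 202 miRNAs called by limma (95 higher, 107 lower) was 204 under median-ratio scaling with another balance (121 higher, 83 lower). It became 101 under quantile normalization, 5 without the level filter, also 5 without the trend, and 7 to 113 with 1 library left out. The 5 miR-30 calls became 3 under quantile normalization, 0 with no level filter (5 at an unadjusted p under 0.05), 0 with no mean-variance trend (2 unadjusted), and 0 to 1 with 1 library left out. The cause was not tested. The block by line changed no call among the 11 strands, with 5 passing. Of the 204 strand pairs, 41 ratios passed. This count was 0 with no level filter, no trend or the replicate block (65, 51 and 50 unadjusted) and 0 to 15 with 1 library left out. The 3 miR-30 ratios became 0 in these 3 fits (4, 2 and 4 unadjusted) and 0 to 1 with 1 library left out. Of results that did not pass, miR-30a-3p turned to 0.047 under median-ratio scaling and 0.050 under quantile normalization, and ranged from −0.050 to 0.020 with 1 library left out. miR-30e-5p turned to −0.019 with equal totals and −0.11 under quantile normalization, and ranged from −0.046 to 0.12. miR-30c-2-3p and its ratio have no value at a minimum mean of 100. No other strand or ratio changed sign under these alternatives. Without the most abundant miRNA in the denominator the 5p share was 1.92% in minus and 2.08% in plus. With 1 library left out it was 1.497% to 1.56% in minus and 1.63% to 1.64% in plus. Depth limits the 3p strands most, with values down to 47.0 against 6294 for the 5p strands.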
